A study of Mus musculus with 11 samples.

Results

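The 10 genes described here act at the entry and the committed step of glycolysis. They are the glucose transporters Slc2a1 and Slc2a3, the hexokinases Hk1 and Hk2, the isomerase Gpi1, the 6-phosphofructo-1-kinase subunits Pfkl, Pfkm and Pfkp, and the bifunctional enzymes Pfkfb3 and Pfkfb4. They were chosen by name for these roles, with earlier results of these data known. Ensembl identifiers gave their rows, 10 of the 22104 genes listed. All 10 passed the filter on low values and were among the 14729 genes tested.

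Total RNA was sequenced from primary myoblasts, the proliferating precursors of skeletal muscle fibres, grown from the tibialis anterior muscle of C57BL/6 mice about 8 weeks old. The mice were Bmal1-/- or wild-type, and Bmal1 is listed under the symbol Arntl. Cells spent 6 h at 1% oxygen (hypoxia) or 21% oxygen (normoxia) before RNA was taken. The 4 groups were Bmal1-/- cells in hypoxia (3 libraries), Bmal1-/- cells in normoxia (3), wild-type cells in hypoxia (3) and wild-type cells in normoxia (2). The mice are labelled as knockouts with no promoter-driven Cre named, and the labels do not say whether the libraries of a group came from separate mice or cultures. The p-values given here thus reflect how far libraries of 1 group lie apart, and that spread may be only technical.

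Glucose enters muscle precursor cells through facilitative transporters and is trapped when hexokinase phosphorylates it. Glucose 6-phosphate is isomerised to fructose 6-phosphate, and phosphofructokinase then adds the second phosphate in the step that commits the sugar to glycolysis. PFKFB enzymes make and degrade fructose 2,6-bisphosphate, the strongest allosteric activator of phosphofructokinase. Under low oxygen the transcription factor HIF-1 binds hypoxia response elements and raises many glycolytic genes. BMAL1 belongs to the same bHLH-PAS protein family as HIF-1α and pairs with CLOCK on E-boxes to drive the circadian clock.

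The promoters of these genes are shown because 8 of the 10 genes moved together in hypoxia and because the deleted factor is itself a DNA-binding protein. The sequences are the 250 bases before the annotated start, from RefSeq on GRCm38.p6, which held 14 such windows for 9 of the 10 genes. Capitals mark the core letters of the hypoxia response element, ACGTG or GCGTG on either strand, so that CACGT and CACGC are matches on the opposite strand. The E-box CACGTG is palindromic and holds ACGTG on both strands, so each E-box counts as a pair of overlapping matches. Where a gene had several windows, the one with an E-box is shown. The first 5 sequences belong to genes that rose in hypoxia and the last 2 to genes that did not pass the test.
Slc2a1, chr4:119108495-119108744, plus strand: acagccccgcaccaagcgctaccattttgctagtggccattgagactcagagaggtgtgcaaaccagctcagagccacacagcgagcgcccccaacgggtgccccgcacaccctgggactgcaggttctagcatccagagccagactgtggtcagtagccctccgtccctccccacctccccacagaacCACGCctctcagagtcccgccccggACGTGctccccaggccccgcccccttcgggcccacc
Hk2, chr6:82774455-82774704, minus strand: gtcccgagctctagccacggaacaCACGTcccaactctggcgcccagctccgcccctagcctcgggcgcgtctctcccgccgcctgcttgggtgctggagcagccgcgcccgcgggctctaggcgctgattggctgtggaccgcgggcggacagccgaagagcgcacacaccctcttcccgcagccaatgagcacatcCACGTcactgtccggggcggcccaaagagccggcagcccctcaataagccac
Gpi1, chr7:34230337-34230586, minus strand: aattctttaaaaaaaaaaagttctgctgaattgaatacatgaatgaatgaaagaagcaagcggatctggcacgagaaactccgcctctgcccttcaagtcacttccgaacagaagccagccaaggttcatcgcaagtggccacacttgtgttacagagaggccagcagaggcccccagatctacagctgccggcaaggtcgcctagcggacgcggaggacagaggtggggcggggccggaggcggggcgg
Pfkl, chr10:78009808-78010057, minus strand: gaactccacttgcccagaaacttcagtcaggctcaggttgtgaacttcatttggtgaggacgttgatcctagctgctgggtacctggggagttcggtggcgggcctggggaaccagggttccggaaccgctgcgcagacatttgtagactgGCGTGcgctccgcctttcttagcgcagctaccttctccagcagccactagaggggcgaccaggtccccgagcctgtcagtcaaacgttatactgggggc
Pfkfb3, chr2:11502091-11502340, minus strand: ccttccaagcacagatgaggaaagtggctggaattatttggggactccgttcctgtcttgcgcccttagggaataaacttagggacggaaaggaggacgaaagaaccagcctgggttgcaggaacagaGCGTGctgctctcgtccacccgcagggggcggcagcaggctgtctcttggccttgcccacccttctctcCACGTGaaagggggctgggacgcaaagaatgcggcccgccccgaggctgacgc
Pfkm, chr15:98092339-98092588, plus strand: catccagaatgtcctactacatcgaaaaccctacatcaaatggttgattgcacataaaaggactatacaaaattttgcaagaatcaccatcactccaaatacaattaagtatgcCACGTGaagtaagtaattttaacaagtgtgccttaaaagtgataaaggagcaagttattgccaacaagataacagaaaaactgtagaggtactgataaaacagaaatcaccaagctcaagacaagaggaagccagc
Pfkfb4, chr9:108991652-108991901, plus strand: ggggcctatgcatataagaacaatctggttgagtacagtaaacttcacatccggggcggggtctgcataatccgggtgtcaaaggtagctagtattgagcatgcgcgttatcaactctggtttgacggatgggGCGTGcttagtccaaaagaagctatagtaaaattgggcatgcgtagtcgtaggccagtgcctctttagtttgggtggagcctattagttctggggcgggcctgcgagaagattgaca
At least 1 match to the hypoxia response core lay in 11 of the 14 windows, against 38.6% of all 32851 windows of this length in the table. The windows belonged to 8 of the 9 genes, and Gpi1 was the gene with none. An E-box was present in 2 of the 14 windows, 1 of Pfkm and 1 of Pfkfb3, against 6.02% of all windows. Pfkfb3 carried its E-box 53 bases before the start and a further GCGTG core at 122 bases. Pfkm and Pfkfb4 carried matches too, although neither passed the test in hypoxia. A pair of the Pfkm windows overlap each other, so a match they share is counted in both. A match is a description of the letters in these windows, and its frequency was not tested against the other windows. The values do not show which start site these cells used.

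The libraries held 18707697 to 33613328 reads assigned to genes, and each hypoxia library (at least 23027613) was deeper than each normoxia library (at most 21451760). Arntl had 128, 134 and 128 normalized reads in Bmal1-/- hypoxia and 109, 117 and 98.8 in Bmal1-/- normoxia, against 325, 328 and 322 in hypoxic wild-type cells and 264 and 267 in normoxic wild-type cells. Its log2 difference in Bmal1-/- cells was -1.29 in normoxia (limma adjusted p = 2.24e-06) and -1.31 in hypoxia (limma adjusted p = 4.96e-07). Whether the remaining reads lie outside the deleted part is not shown by a value per gene. The 8 myoblast markers were all detected, with summed normalized reads of 47535 to 55090 per library. Differentiating muscle markers summed to 18337 to 33497, pericyte and smooth muscle markers to 25668 to 35125 and fibroblast markers to 4799 to 11044. Most of the pericyte and smooth muscle sum was 1 gene, Acta2, with 23912 to 32293 normalized reads. The next highest of that list, Pdgfrb, had 682 to 2161, so the sum does not measure the content of such cells. Endothelial markers summed to at most 61.4, leukocyte markers to at most 42.8, Schwann markers to at most 41.2 and adipocyte markers to at most 2.05. Ptprc and Adgre1 (leukocyte) and Plin1 and Cidec (adipocyte) were not among the 22104 genes listed.

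Hypoxia against normoxia was compared in each genotype to show which of these genes respond to 6 h of low oxygen. The same 8 genes rose in Bmal1-/- cells and in wild-type cells, and Pfkm and Pfkfb4 did not pass the test in either. The rises ran from 1.46-fold for Hk1 to 4.83-fold for Slc2a3 in Bmal1-/- cells, and from 1.46-fold for Hk1 to 6.07-fold for Pfkfb3 in wild-type cells. Of all tested genes, 3.15% rose and 0.937% fell in Bmal1-/- cells, and 1.70% rose and 0.468% fell in wild-type cells. These are 464 risen and 138 fallen genes in Bmal1-/- cells, or 375 and 206 when each library was scaled to its total. In wild-type cells they are 251 risen and 69 fallen genes, or 193 and 153 with that scaling, and the 8 genes rose under each scaling run. Every hypoxia library lay above every normoxia library for 9 of the 10 genes in Bmal1-/- cells (11.9% of all tested genes) and for 8 in wild-type cells (15.4% of all tested genes). The median log2 change of the 10 genes was 1.06 in Bmal1-/- cells and 0.97 in wild-type cells, and over all tested genes it was -0.0052 in Bmal1-/- cells and -0.0025 in wild-type cells. Because the 10 genes were chosen with earlier results of these data known, these counts and medians only describe a chosen set. Changes are on the log2(normalized read count + 1) scale, and a gene passed at a Benjamini-Hochberg adjusted p under 0.05 over all tested genes.

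**Figure D1:**
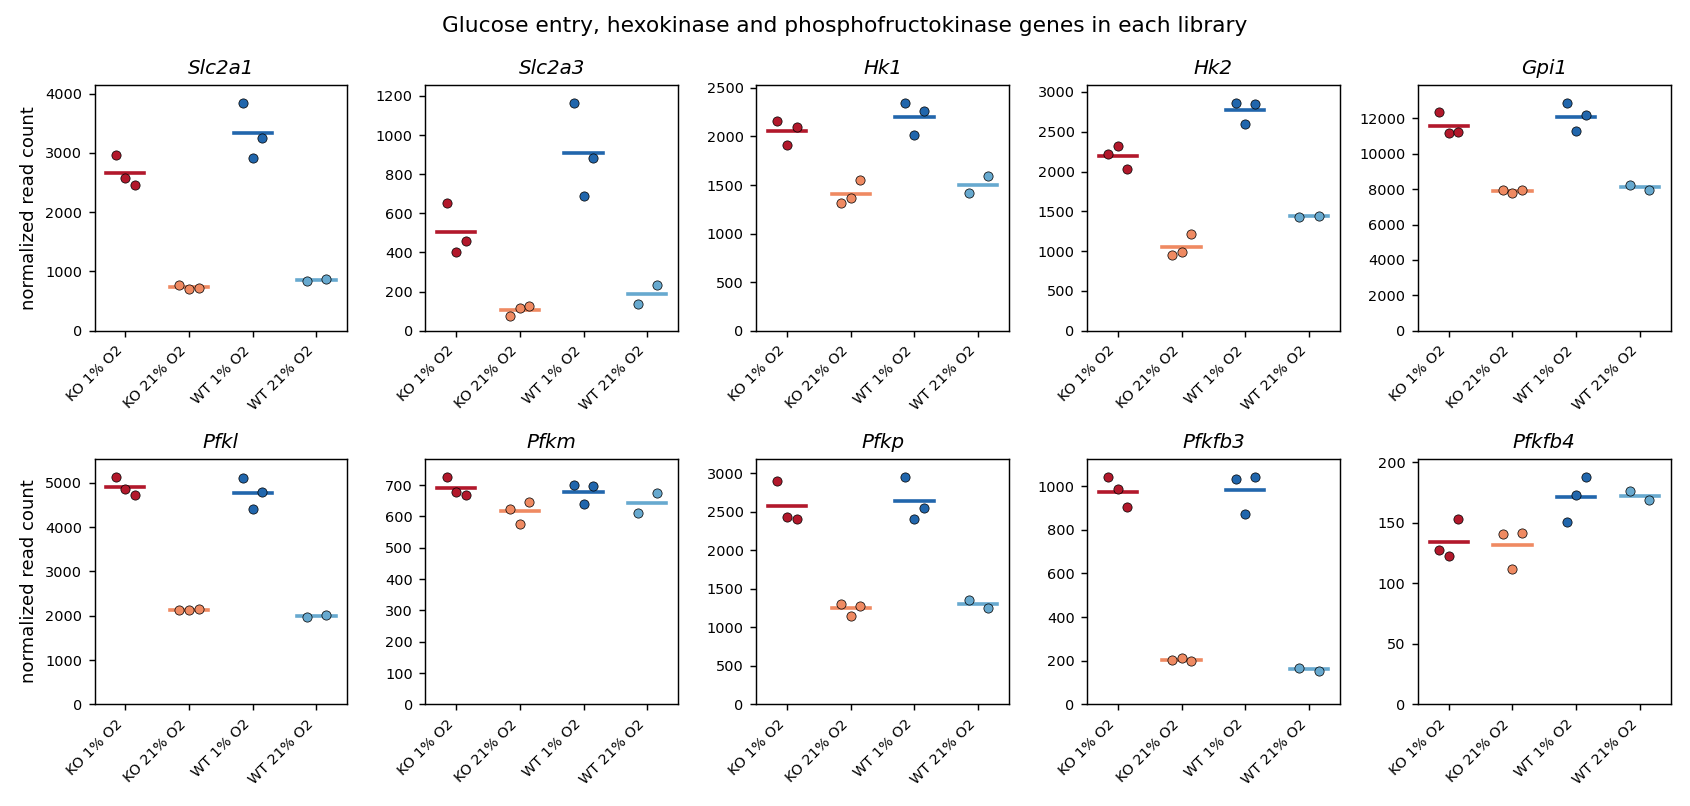
Normalized read count of each of the 10 genes in every library (points) with the group mean (bar), for Bmal1-/- (KO) and wild-type (WT) cells at 1% and 21% oxygen; each panel has its own axis starting at 0. All hypoxia libraries lie above all normoxia libraries of the same genotype for 8 genes, whereas the points of Pfkfb4 overlap in both genotypes and those of Pfkm overlap in wild-type cells.

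Slc2a1 (chr4:119108711-119137983, plus strand, GRCm38) encodes GLUT1, the transporter of basal glucose uptake in most proliferating cells. It had 2960, 2570 and 2459 normalized reads in Bmal1-/- hypoxia, against 776, 707 and 717 in Bmal1-/- normoxia. In wild-type cells it had 3840, 2919 and 3248 in hypoxia, against 846 and 865 in normoxia. The hypoxia libraries did not overlap the normoxia libraries in either genotype. It rose 3.62-fold in Bmal1-/- cells (log2 1.86, SE 0.09, limma adjusted p = 2.64e-08) and 3.87-fold in wild-type cells (log2 1.95, SE 0.10, limma adjusted p = 5.31e-08).

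Slc2a3 (chr6:122727809-122801640, minus strand) encodes GLUT3, a transporter with high affinity for glucose best known from neurons. It had 654, 401 and 460 normalized reads in Bmal1-/- hypoxia, against 73.2, 115 and 124 in Bmal1-/- normoxia. The wild-type cells had 1163, 686 and 882 in hypoxia, against 138 and 235 in normoxia. The ranges did not overlap, and the libraries within a group lay further apart than for any of the other 9 genes, with a pooled SD of 0.41 on the log2 scale. Slc2a3 rose 4.83-fold in Bmal1-/- cells (log2 2.27, 95% interval 1.73 to 2.81, limma adjusted p = 9.78e-05) and 4.91-fold in wild-type cells (log2 2.30, 95% interval 1.69 to 2.90, limma adjusted p = 0.000295).

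Hk1 (chr10:62268855-62379908, minus strand) encodes the hexokinase found in most tissues. It had 2157, 1908 and 2102 normalized reads in Bmal1-/- hypoxia, against 1317, 1369 and 1549 in Bmal1-/- normoxia. Wild-type libraries had 2343, 2012 and 2259 in hypoxia, against 1422 and 1588 in normoxia. The groups did not overlap, although the rise was the smallest among the 8 genes that passed, 0.54 on the log2 scale in Bmal1-/- cells (SE 0.08, limma adjusted p = 0.000856) and 0.55 in wild-type cells (SE 0.08, limma adjusted p = 0.0023). Without replicate 1 of wild-type normoxia the wild-type call was lost, with an adjusted p of 0.0536 by limma.

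Hk2 (chr6:82725025-82774454, minus strand) encodes the inducible hexokinase typical of muscle, which can bind the outer mitochondrial membrane. It had 2222, 2319 and 2030 normalized reads in Bmal1-/- hypoxia, against 946, 991 and 1211 in Bmal1-/- normoxia. Its wild-type values were 2859, 2601 and 2843 in hypoxia, against 1434 and 1443 in normoxia. Every Bmal1-/- library stood below every wild-type library at the same oxygen level. The antisense gene Gm17034, which overlaps Hk2, had at most 29.5 normalized reads. It rose in hypoxia in Bmal1-/- cells (log2 1.53, limma adjusted p = 0.0423) and did not pass in wild-type cells (log2 0.76, limma adjusted p = 0.48). Hk2 rose 2.10-fold in Bmal1-/- cells (log2 1.07, SE 0.08, limma adjusted p = 2.56e-06) and 1.92-fold in wild-type cells (log2 0.94, SE 0.09, limma adjusted p = 2.78e-05).

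Gpi1 (chr7:34201330-34230336, minus strand) encodes glucose-6-phosphate isomerase, which makes the substrate of phosphofructokinase. It was the most abundant of the 10 genes, with 12368, 11196 and 11225 normalized reads in Bmal1-/- hypoxia against 7932, 7798 and 7957 in Bmal1-/- normoxia. Wild-type cells had 12868, 11272 and 12171 in hypoxia, against 8255 and 7946 in normoxia. The rise was even across libraries, 1.47-fold in Bmal1-/- cells (log2 0.55, SE 0.05, limma adjusted p = 1.49e-05) and 1.49-fold in wild-type cells (log2 0.58, SE 0.06, limma adjusted p = 3.25e-05). A long non-coding RNA on the opposite strand, Gm26762, overlaps Gpi1, and the counting is not stated to use strand, so reads of the overlap cannot be assigned with certainty. Gm26762 had at most 206 normalized reads in any library and itself rose in hypoxia, by 0.86 on the log2 scale in Bmal1-/- cells (limma adjusted p = 0.000551) and 1.24 in wild-type cells (5.97e-05).

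Pfkl (chr10:77986947-78010083, minus strand) encodes the liver-type subunit of 6-phosphofructo-1-kinase. It had 5133, 4852 and 4716 normalized reads in Bmal1-/- hypoxia, against 2135, 2126 and 2162 in Bmal1-/- normoxia. In wild-type cells it had 5113, 4398 and 4795 in hypoxia, against 1973 and 2021 in normoxia. It rose 2.29-fold in Bmal1-/- cells (log2 1.19, SE 0.05, limma adjusted p = 1.13e-08) and 2.38-fold in wild-type cells (log2 1.25, SE 0.06, limma adjusted p = 2.44e-08), with the sixth smallest p of all tested genes in each.

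Pfkp (chr13:6579768-6648777, minus strand) encodes the platelet-type subunit. It had 2894, 2434 and 2410 normalized reads in Bmal1-/- hypoxia, against 1306, 1147 and 1284 in Bmal1-/- normoxia. Wild-type libraries had 2953, 2409 and 2545 in hypoxia, against 1359 and 1258 in normoxia. It rose 2.07-fold in Bmal1-/- cells (limma adjusted p = 4.82e-06) and 2.01-fold in wild-type cells (limma adjusted p = 2.45e-05). The overlapping gene Pitrm1 had 3124 to 3761 normalized reads and did not pass the test in hypoxia.

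Pfkm (chr15:98092589-98132451, plus strand) encodes the muscle-type subunit, the main form of mature muscle fibres. It had 726, 678 and 667 normalized reads in Bmal1-/- hypoxia, against 624, 577 and 646 in Bmal1-/- normoxia. Its wild-type values were 700, 641 and 697 in hypoxia, against 611 and 675 in normoxia. The Bmal1-/- libraries did not overlap and the wild-type libraries did. The log2 change was 0.17 in Bmal1-/- cells (95% interval 0.02 to 0.31, limma adjusted p = 0.218) and 0.08 in wild-type cells (95% interval -0.08 to 0.24, limma adjusted p = 0.717). Neither interval reaches the smallest change among the genes that rose. Senp1, which overlaps Pfkm, had 920 to 1045 normalized reads and did not pass the test.

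Pfkfb3 (chr2:11471433-11554077, minus strand) encodes the PFKFB form with the highest kinase activity relative to its phosphatase activity. It had 1040, 985 and 902 normalized reads in Bmal1-/- hypoxia, against 204, 212 and 200 in Bmal1-/- normoxia. In wild-type cells it had 1032, 871 and 1042 in hypoxia, against 168 and 153 in normoxia. The hypoxia levels of the genotypes overlapped, while the normoxia level was higher in each Bmal1-/- library. Pfkfb3 rose 4.73-fold in Bmal1-/- cells (log2 2.24, SE 0.08, limma adjusted p = 6.58e-09) and 6.07-fold in wild-type cells (log2 2.60, SE 0.09, limma adjusted p = 4.65e-09). It had the smallest p of all 14729 tested genes in both comparisons.

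Pfkfb4 (chr9:108991778-109032228, plus strand) encodes another PFKFB form, first described in testis and known as hypoxia-inducible in several tumour cell lines. It had 128, 123 and 153 normalized reads in Bmal1-/- hypoxia, against 141, 112 and 142 in Bmal1-/- normoxia. The wild-type cells had 151, 173 and 188 in hypoxia, against 176 and 169 in normoxia. The libraries overlapped in both genotypes. The log2 change was 0.03 in Bmal1-/- cells (95% interval -0.25 to 0.30, limma adjusted p = 0.945) and -0.02 in wild-type cells (95% interval -0.33 to 0.29, limma adjusted p = 0.971).

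**Figure D2:**
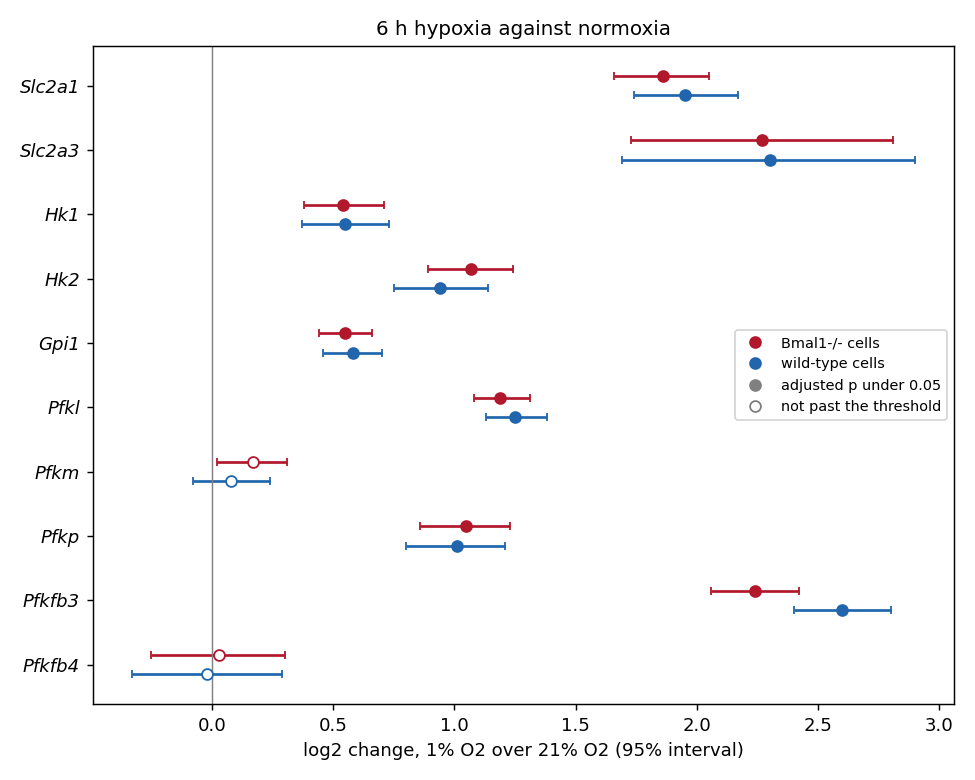
Log2 change at 1% over 21% oxygen for each gene in Bmal1-/- cells (red, upper) and wild-type cells (blue, lower), with 95% intervals from limma; filled points passed an adjusted p of 0.05. The 8 filled pairs lie between 0.54 and 2.60, and the open pairs of Pfkm and Pfkfb4 lie near 0.

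The hypoxia libraries were deeper than the normoxia libraries, and the part of depth in these changes was not tested beyond the scalings compared above. In bulk RNA, fewer cells of a type and less RNA per cell cannot be told apart. Among fibroblast markers 2 of 8 rose in hypoxia in Bmal1-/- cells and 0 of 8 in wild-type cells, with summed normalized reads of 6067 to 6676 in Bmal1-/- hypoxia against 4799 to 5535 in Bmal1-/- normoxia, and 9899 to 11044 in wild-type hypoxia against 8962 to 10369 in wild-type normoxia. Differentiating muscle markers gave 0 calls of 7 in each genotype. Among pericyte and smooth muscle markers 1 of 5 tested, Acta2, fell in each genotype, and Acta2 makes up most of their sum. The sums were 25668 to 26089 in Bmal1-/- hypoxia against 28709 to 29221 in Bmal1-/- normoxia. In wild-type cells they were 30198 to 31312 in hypoxia against 34067 to 35125 in normoxia. The part of these markers in the hypoxia changes was not tested.

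The difference between the hypoxia changes of the genotypes, Bmal1-/- minus wild-type, was tested for each gene as an interaction. None of the 10 genes passed in limma, edgeR or DESeq2, and 1 of the 10, Pfkfb3, had an unadjusted p under 0.05 in each. Across all tested genes 0.00679% passed upward and 0.00% downward in limma. For Pfkfb3 the difference was -0.36 on the log2 scale (95% interval -0.63 to -0.09, limma unadjusted p = 0.0126, adjusted p = 0.905). For Slc2a1 it was -0.10 (95% interval -0.39 to 0.19), for Hk2 0.13 (-0.14 to 0.39), for Pfkl -0.06 (-0.23 to 0.11) and for Pfkp 0.04 (-0.23 to 0.32). The interval was narrowest for Gpi1, -0.19 to 0.14, and widest for Slc2a3, -0.83 to 0.79.

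Bmal1-/- against wild-type cells was compared at each oxygen level to show how the levels of these genes differ between the genotypes. Hk2 fell in Bmal1-/- cells at both oxygen levels, Slc2a1 fell in hypoxia, and Pfkfb3 rose in normoxia. In normoxia 1 of the 10 genes rose and 1 fell, where 3.44% of all tested genes rose and 5.66% fell. Among all tested genes, 506 rose and 833 fell in Bmal1-/- normoxia, or 375 and 1012 when each library was scaled to its total. In hypoxia 0 of the 10 rose and 2 fell, where 3.33% of all tested genes rose and 5.61% fell. With 10 genes, counts of 1 or 2 lie near these backgrounds. The median log2 difference of the 10 genes was -0.083 in normoxia and -0.080 in hypoxia, and over all tested genes it was 0.0049 in normoxia and 0.0045 in hypoxia.

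Hk2 averaged 1049 ± 142 normalized reads in Bmal1-/- normoxia (SD, n = 3) against 1438 ± 6.59 in wild-type normoxia (SD, n = 2), and 2190 ± 147 in Bmal1-/- hypoxia against 2767 ± 145 in wild-type hypoxia (SD, n = 3 each). Its log2 difference was -0.46 in normoxia (SE 0.09, limma adjusted p = 0.00544) and -0.34 in hypoxia (SE 0.08, limma adjusted p = 0.0178). The normoxia call held in each of the alternatives run. The hypoxia call was lost without wild-type hypoxia replicate 1 (limma adjusted p = 0.068) or 3 (0.0627) and without Bmal1-/- hypoxia replicate 3 (0.0822).

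Slc2a1 averaged 2663 ± 263 normalized reads in Bmal1-/- hypoxia against 3336 ± 467 in wild-type hypoxia (SD, n = 3 each). The log2 difference was -0.32 (SE 0.09, limma adjusted p = 0.0392), and the groups overlapped, since 1 Bmal1-/- library at 2960 stood above 1 wild-type library at 2919. In normoxia the difference was -0.22 (limma adjusted p = 0.196) with no overlap between the groups. The hypoxia call was lost without wild-type hypoxia replicate 1 (log2 -0.21, limma adjusted p = 0.155) or 3 (0.0775), without Bmal1-/- hypoxia replicate 2 (0.131) or 3 (0.149), and without wild-type normoxia replicate 1 (0.0513) or 2 (0.0512).

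Pfkfb3 averaged 205 ± 6.49 normalized reads in Bmal1-/- normoxia (SD, n = 3) against 161 ± 10.7 in wild-type normoxia (SD, n = 2), 1.28-fold higher (log2 0.35, 95% interval 0.15 to 0.55, limma adjusted p = 0.0303). In hypoxia the difference was -0.01 (95% interval -0.19 to 0.17, limma adjusted p = 0.982). The normoxia call was lost in edgeR (adjusted p = 0.101) and DESeq2 (adjusted p = 0.112). By limma it was also lost without wild-type normoxia replicate 1 (0.0577) or 2 (0.219) and without Bmal1-/- normoxia replicate 1 (0.0633) or 2 (0.0854).

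Slc2a3 did not pass the test between genotypes, although its estimated difference over all libraries was the largest of the 10 genes at each oxygen level. It averaged 104 ± 27.0 normalized reads in Bmal1-/- normoxia (SD, n = 3) against 187 ± 68.6 in wild-type normoxia (SD, n = 2), and 505 ± 132 in Bmal1-/- hypoxia against 910 ± 240 in wild-type hypoxia (SD, n = 3 each). The libraries did not overlap at either oxygen level. The log2 difference was -0.82 in normoxia (95% interval -1.43 to -0.22, limma adjusted p = 0.0885) and -0.85 in hypoxia (95% interval -1.39 to -0.31, limma adjusted p = 0.0517). The normoxia difference was -1.21 without wild-type normoxia replicate 1 (limma adjusted p = 0.051) and -0.44 without replicate 2 (0.536), which is smaller in size than the Hk2 difference of -0.46. The hypoxia difference passed without wild-type hypoxia replicate 2 (limma adjusted p = 0.0357), wild-type normoxia replicate 1 (0.0363) or 2 (0.0364), Bmal1-/- hypoxia replicate 1 (0.0288) or Bmal1-/- normoxia replicate 1 (0.0338).

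Pfkfb4 had log2 differences of -0.39 in normoxia (limma adjusted p = 0.115) and -0.34 in hypoxia (limma adjusted p = 0.136). Pfkl had 0.10 in normoxia (limma adjusted p = 0.331), with each Bmal1-/- library above both wild-type libraries. Hk1, Gpi1, Pfkm and Pfkp differed by at most 0.10 on the log2 scale in either direction at both oxygen levels and did not pass. Counting groups that did not overlap, 2 of the 10 genes were higher and 4 lower in Bmal1-/- normoxia, where 18.8% of all tested genes were higher and 19.6% lower. In hypoxia 0 were higher and 2 lower, where 12.4% were higher and 13.9% lower.

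**Figure D3:**
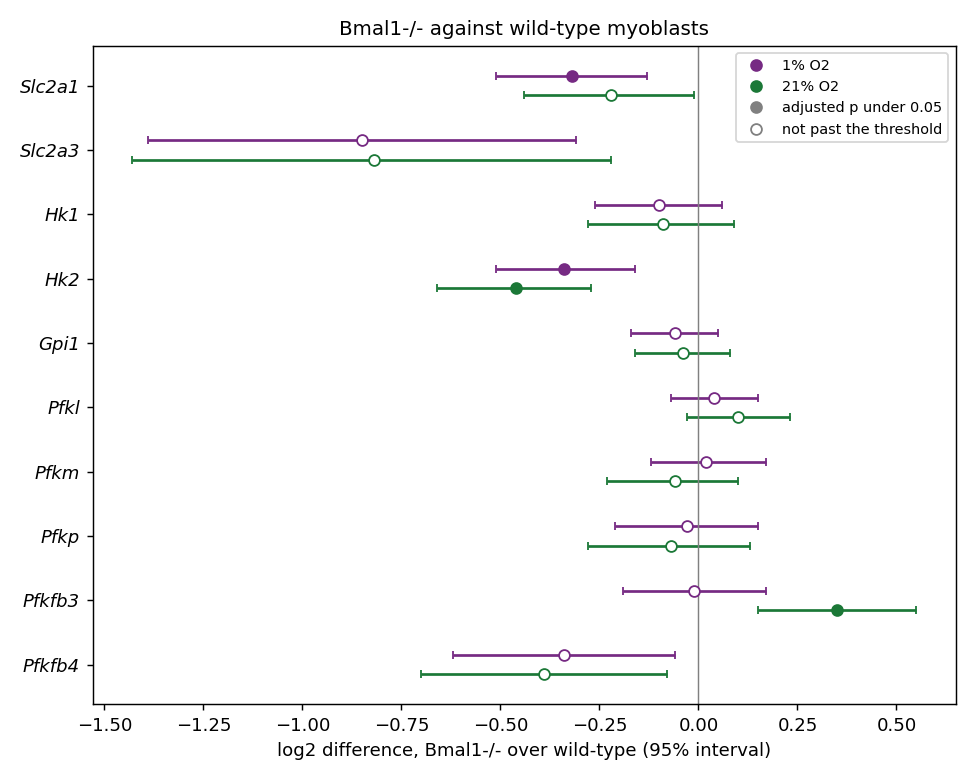
Log2 difference, Bmal1-/- over wild-type, for each gene at 1% oxygen (purple, upper) and 21% oxygen (green, lower), with 95% intervals from limma; filled points passed an adjusted p of 0.05. Hk2 is filled at both oxygen levels at -0.34 and -0.46, Slc2a1 at 1% oxygen and Pfkfb3 at 21% oxygen, and Slc2a3 has the widest intervals.

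Marker genes of other cell states differed between the genotypes too. Among the 8 fibroblast markers 7 fell in Bmal1-/- cells at each oxygen level, with sums of 6067 to 6676 normalized reads in Bmal1-/- hypoxia against 9899 to 11044 in wild-type hypoxia, and 4799 to 5535 in Bmal1-/- normoxia against 8962 to 10369 in wild-type normoxia. Among the 7 differentiating muscle markers 4 rose in normoxia and 5 in hypoxia, with sums of 29057 to 31612 in Bmal1-/- hypoxia against 18337 to 23779 in wild-type hypoxia, and 29033 to 33497 in Bmal1-/- normoxia against 20915 to 24001 in wild-type normoxia. Among the 5 tested pericyte and smooth muscle markers 3 fell at each oxygen level, and among the 8 myoblast markers 2 rose in normoxia and 3 in hypoxia. The part of these markers in the genotype differences of Hk2, Slc2a1, Slc2a3 and Pfkfb3 was not tested.

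Per kilobase of exon, Gpi1 stood highest in all 4 groups, with 1797 ± 104 normalized reads per kb in Bmal1-/- hypoxia, 1224 ± 13.3 in Bmal1-/- normoxia and 1876 ± 124 in wild-type hypoxia (SD, n = 3 each), and 1256 ± 33.9 in wild-type normoxia (SD, n = 2). In hypoxia the order after Gpi1 was Slc2a1, Pfkl, Hk2, Hk1, Pfkm, Pfkp, Pfkfb3, Slc2a3 and Pfkfb4 in both genotypes. Neighbours whose libraries overlapped were Slc2a1 and Pfkl in Bmal1-/- cells, Pfkfb3 and Slc2a3 in wild-type cells, and Pfkm and Pfkp in both. In Bmal1-/- normoxia the order was Gpi1, Pfkl, Slc2a1, Pfkm, Hk2, Hk1, Pfkp, Pfkfb3, Pfkfb4 and Slc2a3, with overlaps between Pfkm and Hk2, Hk2 and Hk1, and Pfkfb3 and Pfkfb4. Wild-type normoxia had the order Gpi1, Pfkl, Slc2a1, Hk2, Pfkm, Hk1, Pfkp, Pfkfb4, Slc2a3 and Pfkfb3, with overlaps between Slc2a1 and Hk2, Pfkm and Hk1, and Slc2a3 and Pfkfb3. These levels use all merged exons of a gene. With the longest transcript as the length, Pfkl stood above Slc2a1 and Pfkp above Pfkm in hypoxia in both genotypes, with no overlap between these neighbours. Hk1 then stood above Hk2 in all 4 groups, with overlapping libraries in wild-type hypoxia. Gpi1 stood first in all 4 groups under both lengths.

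Among the members of each enzyme family described here, the make-up differed between oxygen levels. Other PFKFB genes, hexokinases and glucose transporters were left out of these shares. Pfkl took 64.8% ± 0.75 of phosphofructokinase reads per kb in Bmal1-/- hypoxia against 53.7% ± 1.35 in Bmal1-/- normoxia (SD, n = 3 each), and 64.1% ± 0.19 in wild-type hypoxia (SD, n = 3) against 50.8% ± 0.28 in wild-type normoxia (SD, n = 2). Pfkm, the muscle form, took 18.3% against 30.8% in Bmal1-/- cells and 18.3% against 32.7% in wild-type cells, hypoxia against normoxia. The libraries did not overlap for either subunit, while the normalized reads of Pfkm itself did not pass the test. Pfkp took 15.5% to 17.6% in the 4 group means.

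Pfkfb3 took 82.3% ± 2.71 of the reads per kb of the Pfkfb3 and Pfkfb4 pair in Bmal1-/- hypoxia against 50.2% ± 4.10 in Bmal1-/- normoxia (SD, n = 3 each). In wild-type cells it took 78.7% ± 2.60 in hypoxia (SD, n = 3) against 37.5% ± 0.92 in normoxia (SD, n = 2). In normoxia the lowest Bmal1-/- library, at 47.5%, stood above the highest wild-type library, at 38.2%. Hk2 took 60.3% ± 2.82 of hexokinase reads per kb in Bmal1-/- hypoxia against 51.4% ± 1.18 in Bmal1-/- normoxia (SD, n = 3 each), and 64.2% ± 0.66 in wild-type hypoxia (SD, n = 3) against 57.8% ± 1.79 in wild-type normoxia (SD, n = 2). No hypoxia library overlapped a normoxia library of its genotype.

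Between Slc2a1 and Slc2a3, Slc2a1 took 91.7% in Bmal1-/- hypoxia, 93.5% in Bmal1-/- normoxia, 88.5% in wild-type hypoxia and 90.5% in wild-type normoxia. The Slc2a3 share overlapped between hypoxia and normoxia in both genotypes. The sum of Slc2a1 and Slc2a3 per kb was 829 ± 91.9 in Bmal1-/- hypoxia against 224 ± 7.08 in Bmal1-/- normoxia (SD, n = 3 each), and 1077 ± 166 in wild-type hypoxia (SD, n = 3) against 270 ± 13.4 in wild-type normoxia (SD, n = 2). The shares depend on the length used, and with the longest transcript Hk2 took 45.3% in Bmal1-/- hypoxia against 36.5% in Bmal1-/- normoxia, and 49.4% in wild-type hypoxia against 42.6% in wild-type normoxia. The direction between oxygen levels was kept for Hk2, Pfkl, Pfkm and Pfkfb3 under both lengths.

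**Figure D4:**
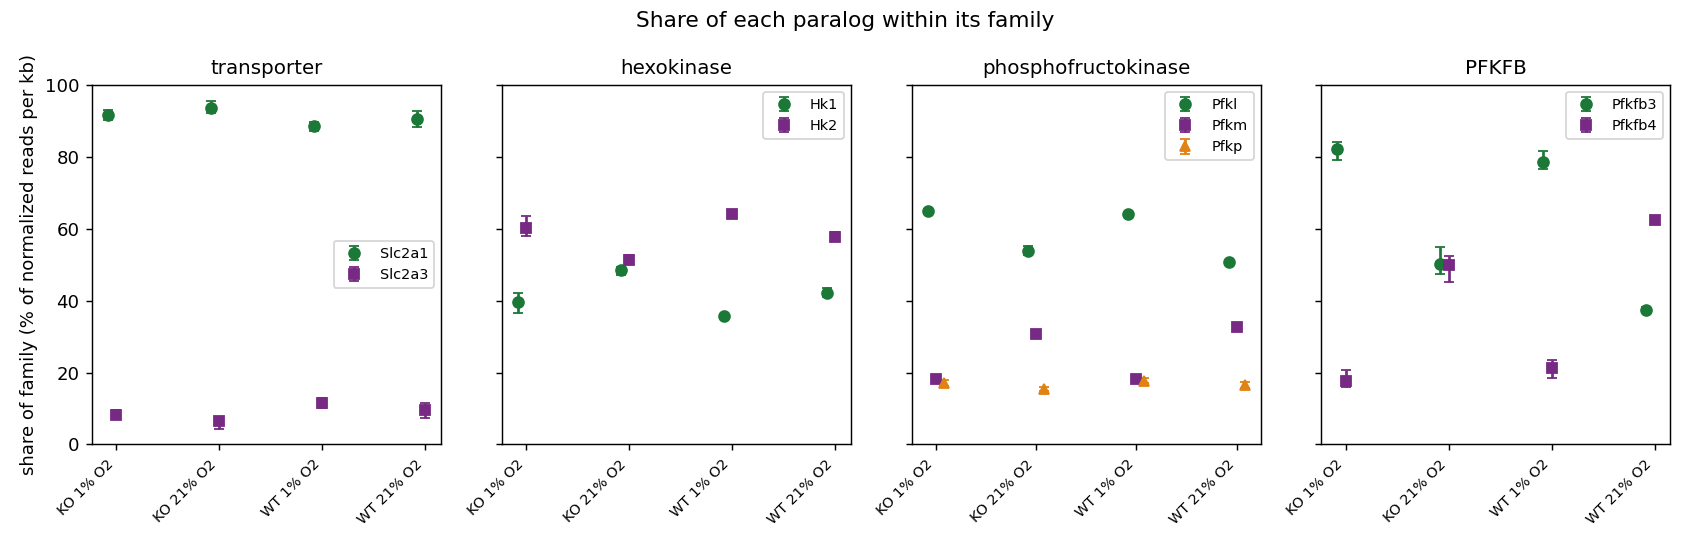
Share of each gene in the normalized reads per kb of the members of its family described here, in percent, by group. Other genes of these families were left out. Points are group means and bars run from the lowest to the highest library. The Pfkfb3 share is 82.3% and 78.7% at 1% oxygen against 50.2% and 37.5% at 21% oxygen (Bmal1-/- and wild-type), and the Pfkm share is 18.3% in both genotypes at 1% oxygen.

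Within groups, the 10 genes varied between libraries by a pooled SD of 0.07 (Gpi1 and Pfkl) to 0.41 (Slc2a3) on the log2 scale. Replicate 1 of Bmal1-/- hypoxia was the highest library of its group for 8 of the 10 genes, where 35.5% of all tested genes were highest in it. Replicate 1 of wild-type hypoxia was highest for 8, where 35.8% of all were, and replicate 2 of wild-type hypoxia was lowest for 9, where 32.7% of all were. Several of the genes deviated together within groups. After the group means were taken out, Pearson's r over the 11 libraries was 0.93 between Slc2a1 and Pfkl and 0.92 between Gpi1 and Pfkp, against 0.20 between Slc2a1 and Hk2 and -0.36 between Slc2a1 and Pfkfb4. These are descriptions over libraries that share their size factors.

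**Figure D5:**
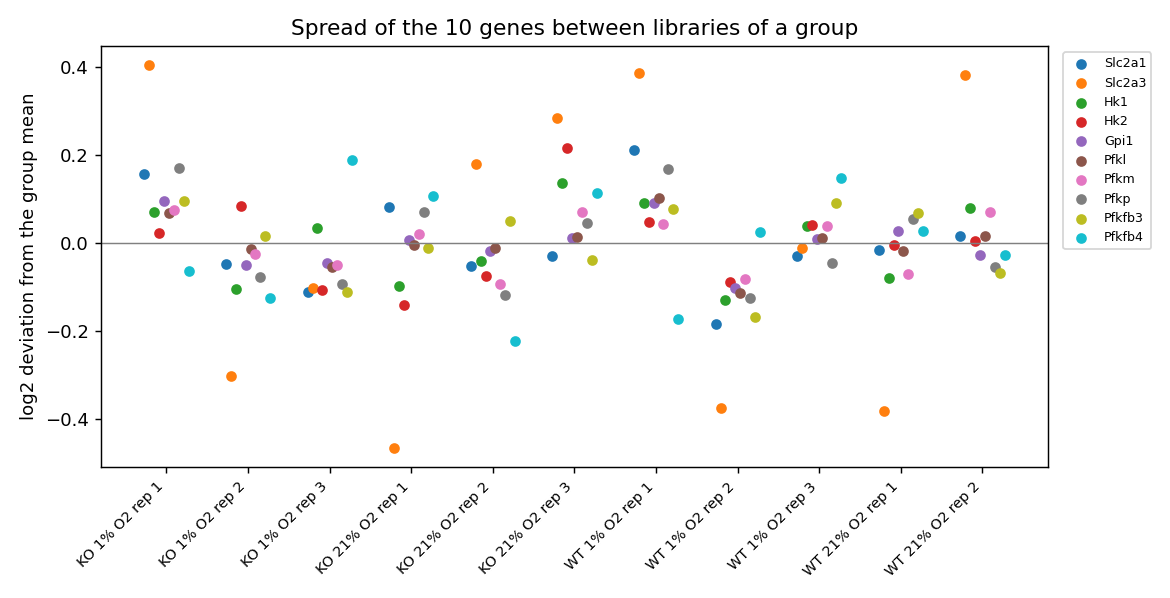
Log2 deviation of each gene from the mean of its group, by library; replicate numbers are names only. Slc2a3 ranges from -0.46 to 0.40, and in wild-type hypoxia replicate 2 all genes except Pfkfb4 lie below 0.

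Over the 11 libraries, the non-member genes most like each member were ranked by Pearson's r of log2 values among 10703 candidates with a mean of at least 50. Egln1 (r = 0.998) and Pgm1 (0.996) were closest to Slc2a1, and Fosl2 (0.983) and Scd2 (0.982) to Slc2a3. Vegfa and Scd2 (both 0.983) were closest to Hk1, and Fosl2 (0.988) and Vegfa (0.985) to Hk2. Egln1 (0.997) and Mxi1 (0.996) were closest to Gpi1, Adm and Bnip3 (both 0.997) to Pfkl, Mxi1 (0.994) and Egln3 (0.993) to Pfkp, and Eno1 and Bnip3 (both 0.997) to Pfkfb3. The 8 genes that rose had between 126 and 168 candidates with r over 0.9. Pfkm had 13, led by Fbxo10 (0.960) and Bcl9l (0.937), and Pfkfb4 had 12, led by Tbx3 (0.952) and Dusp5 (0.944). The libraries share the oxygen contrast and the best of many candidates is high by selection, so these values carry no test.

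Genes next to these steps in the pathway were counted from fixed lists. Of 9 tested genes of sugar transporter families outside the 10 genes, 0 passed in hypoxia against normoxia in either genotype. Slc2a5, a fructose transporter, had 3.63 to 4.85 normalized reads in Bmal1-/- hypoxia against 13.2 to 13.4 in wild-type hypoxia. Its log2 difference was -1.47 (limma adjusted p = 0.0336), at a low level where the log2 scale understates the change. It had 3.75 to 9.93 in Bmal1-/- normoxia and 6.42 to 10.3 in wild-type normoxia. The gene thus passed the filter on low values only through wild-type hypoxia, where it is high. This call is therefore no support for a genotype difference. Of 5 tested genes for other hexokinases and for fructose 2,6-bisphosphate turnover, 0 passed in any comparison.

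The next list held 19 tested genes of branches around glucose 6-phosphate, among them those of glycogen and hexosamines. Of these, 4 rose and 0 fell in hypoxia in Bmal1-/- cells, and 3 rose and 0 fell in wild-type cells. Pgm1, a phosphoglucomutase that links glucose 6-phosphate to glycogen, rose by 1.19 on the log2 scale in Bmal1-/- cells (limma adjusted p = 2.06e-06) and 1.24 in wild-type cells (4.34e-06). Gys1, glycogen synthase, rose by 0.82 in Bmal1-/- cells (limma adjusted p = 0.00125) and 0.90 in wild-type cells (0.00185). Pygl, a glycogen phosphorylase, rose by 0.77 in Bmal1-/- cells (limma adjusted p = 0.0187) and 1.17 in wild-type cells (0.00324).

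Between genotypes 3 genes of that list fell in Bmal1-/- normoxia and 4 in Bmal1-/- hypoxia. Pygl had 34.8 to 52.1 normalized reads in Bmal1-/- normoxia against 87.9 to 99.6 in wild-type normoxia, and 67.2 to 86.3 in Bmal1-/- hypoxia against 186 to 239 in wild-type hypoxia. Its log2 difference was -1.12 in normoxia (limma adjusted p = 0.00182) and -1.52 in hypoxia (limma adjusted p = 4.46e-05). H6pd, the hexose-6-phosphate dehydrogenase of the endoplasmic reticulum, fell by 0.43 in normoxia (limma adjusted p = 0.000321) and by 0.47 in hypoxia (5.49e-05). Gfpt2, which opens the hexosamine branch, fell by 1.14 in normoxia (limma adjusted p = 0.0221) and by 1.46 in hypoxia (0.00193).

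Of 13 tested genes of lower glycolysis 8 rose and 0 fell in hypoxia in each genotype. Pgam1, a phosphoglycerate mutase, rose by 0.90 on the log2 scale in Bmal1-/- cells (limma adjusted p = 1.89e-07) and 0.98 in wild-type cells (2.85e-07). Ldha, a lactate dehydrogenase subunit, rose by 0.66 in Bmal1-/- cells (limma adjusted p = 3.72e-07) and 0.77 in wild-type cells (3.25e-07). Eno1, an enolase, rose by 0.58 in Bmal1-/- cells (limma adjusted p = 1.37e-07) and 0.63 in wild-type cells (2.68e-07). Between genotypes 0 of the 13 passed in normoxia and 1 rose in Bmal1-/- hypoxia, Pgam2, the muscle phosphoglycerate mutase (log2 0.48, limma adjusted p = 0.0178).

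Of 14 tested regulators of glucose uptake 1 rose and 2 fell in hypoxia in Bmal1-/- cells, and 0 rose and 2 fell in wild-type cells. Txnip, an arrestin-domain protein that promotes removal of glucose transporters from the cell surface, had 165 to 248 normalized reads in Bmal1-/- hypoxia against 594 to 700 in Bmal1-/- normoxia, and 278 to 323 in wild-type hypoxia against 992 to 1145 in wild-type normoxia. It fell by 1.62 on the log2 scale in Bmal1-/- cells (limma adjusted p = 3.54e-06) and by 1.82 in wild-type cells (3.82e-06). Its level was also lower in Bmal1-/- cells than in wild-type cells, by a log2 difference of -0.72 in normoxia (limma adjusted p = 0.00583) and -0.52 in hypoxia (0.0208). Arrdc4, a related arrestin-domain gene, fell by 0.91 in Bmal1-/- hypoxia (limma adjusted p = 0.0209), and its log2 change in wild-type hypoxia was -1.16 (0.0143). Igf1r, the IGF-1 receptor, rose by 0.42 in Bmal1-/- hypoxia (limma adjusted p = 0.00782) and had a change of 0.21 in wild-type hypoxia (0.297). In the interaction 0 genes of these 5 lists passed in limma.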

How the data were processed

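The authors deposited 1 table of normalized counts, a signal in which each library's read counts are divided by 1 size factor. Per the submitters' processing notes, bcl2fastq, STAR, Picard, HTSeq, RSEM and DESeq2 were used with the mm10 build. Versions and the tool that made the table are not given in the sources used here, nor is the treatment of strand or of reads shared with paralogs and pseudogenes. Undoing the division returned whole reads, within 0.01 read, for 100% of the values. There were 0 unused columns. Of the 22104 identifiers, 21805 matched a symbol in GENCODE M21 (GRCm38), which also gave positions and exon lengths.

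The log2 of each value plus a pseudocount of 1 was used, a scale that understates changes of low genes. A gene was tested if it reached 10 in 2 or more libraries. One model with 4 group means was fitted by limma 3.58.1 under R 4.3.3 (variance trend, residual df 7, prior df 6.35), with 5 two-sided comparisons adjusted over all 14729 genes. The median SE of a log2 change over all genes was 0.099 in the Bmal1-/- hypoxia and hypoxia genotype comparisons, 0.11 in the wild-type hypoxia and normoxia genotype comparisons and 0.15 in the interaction.

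The chi-square of read counts between libraries of a group, over its degrees of freedom, was 4.59 to 22.65, so no pair was a duplicate. Replicate numbers are not in the labels and pair nothing. The alternatives were other pseudocounts (0.5 and 10), filters and scalings, fits of only the groups compared, edgeR 4.0.16 and DESeq2 1.42.0 on the recovered reads, and leaving out each library.

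The 10 genes and all lists were chosen with earlier results of these data known. By rule, the 10 genes and Arntl were named, from each further list up to 3 called genes with the smallest adjusted p in each comparison, and for likeness the 2 genes with the highest r. Ugp2 and Pgls, the other called genes of the glucose 6-phosphate list, fall outside this rule.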

Additional observations from a re-analysis of the deposited data

How the results depend on the processing

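Across the 21 alternatives no result changed direction while called. The 8 rises in Bmal1-/- hypoxia held in all 21, and 7 to 8 genes rose in wild-type hypoxia when a library was left out. In Bmal1-/- against wild-type normoxia the count of genes that rose was 0 in the fit of only the groups compared, 0 in edgeR and 0 in DESeq2, and 0 to 1 when a library was left out, since Pfkfb3 is the only gene called (adjusted p = 0.118, 0.101 and 0.112). In hypoxia the count that fell was 1 with no filter, where Slc2a1 had an adjusted p of 0.0532 by limma, and 0 to 3 when a library was left out. In the fit of only the groups compared the hypoxia difference of Slc2a1 had an adjusted p of 0.0737 and that of Slc2a3 0.0258 by limma. Slc2a3 also passed with pseudocount 10 (0.0432), the filter at 50 (0.0477) and edgeR (0.0214). The Hk2 difference in normoxia had an adjusted p of 7.33e-05 to 0.0492 over the alternatives (limma, edgeR and DESeq2). The cause of these changes was not tested.

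Over all tested genes, the fit of only the groups compared gave 35 falls in wild-type hypoxia against 69, and 294 rises and 555 falls in Bmal1-/- normoxia against 506 and 833. Leaving out a library gave 303 to 479 rises and 64 to 156 falls in Bmal1-/- hypoxia, 143 to 248 and 18 to 72 in wild-type hypoxia, 229 to 530 and 439 to 835 in Bmal1-/- against wild-type normoxia, and 318 to 497 rises in hypoxia. For the interaction DESeq2 gave 4 rises and 1 fall, and edgeR, pseudocount 10 and the filter at 50 each gave 0 rises. No paired analysis was possible because the labels carry no replicate numbers. The fit of only the groups compared was not run for the interaction, which uses all 4 groups. Slc2a3, with the widest intervals, and Pfkfb4, at 112 to 188 normalized reads, are the genes for which the spread and the depth limit the comparison most.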
